A study of Mus musculus with 2 samples.

Results

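The serpins are a family of protease inhibitors, and their 62 genes on the array were followed in the skin of newborn mice that lack *Pnpla1*. Every probe other than a control whose gene name in the files begins with Serpin, a clade letter from a to i and a digit was taken, whatever its signal, which gave 79 probes among 39429. Of the 62 genes, 27 belong to clade b and 35 to the other clades, among 30336 genes on the array. Total RNA came from whole skin at P0, the day of birth, of *Pnpla1*+/+ mice (wild type) and of *Pnpla1*-/- mice (knockout), both on the C57BL/6N strain. RNA from 6 animals was pooled for each genotype and hybridized, with 1 dye (Cy3), to 1 array, so that 2 arrays make up the data. The knockout mice were homozygous for an allele made from a knockout-first targeting vector (*Pnpla1* tm1a(KOMP)Wtsi) whose reporter and selection cassettes had been excised by flippase, they lacked the gene in all tissues, and the controls were wild-type littermates from heterozygous matings. PNPLA1 is an enzyme of acylceramide synthesis in the upper epidermis, and its loss causes congenital ichthyosis. With 1 array a genotype no test between the genotypes was possible, and each difference describes these pools only. The labels call the tissue skin and the series description speaks of epidermis. Markers of dermal fibroblasts and of muscle were among the bright signals of both arrays, for example *Col1a2* with an intensity of 275482 in wild-type and 201776 in knockout skin.

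A typical serpin presents an exposed reactive centre loop to its target protease, is cleaved there, and traps the protease in a covalent complex as the loop folds into the body of the inhibitor. Clade b serpins have no classical signal peptide, stay mostly inside the cell, and many are made by stratified squamous epithelium, where they face cathepsins, granzymes and trypsin-like proteases. Most serpins of the other clades are secreted and control proteases of blood clotting, fibrinolysis, complement and inflammation, while a few family members inhibit no protease and serve as chaperones or hormone carriers. In mice, several serpins that are single genes in humans have multiplied into clusters of close copies.

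Values are the authors' background-subtracted intensities, which were divided by the 75th percentile of all spots other than controls on the same array (2108 in wild-type and 1734 in knockout skin). Differences are knockout minus wild type on the log2 scale after this division, whereas intensities are given as deposited, and 1 probe, the brightest, stands for a gene. A gene well above background on only 1 array has a bound in place of a difference, in which its signal on the dim array is replaced, if lower, by the lowest signal that passed background there. The technical SD of a difference was 0.09 (median over 385 probes with at least 8 spots). It combines the spread of repeated spots within each array, so it leaves out all variation between mice, pools, labellings and arrays. *Pnpla1* itself had an intensity of 579 in wild-type and 114 in knockout skin, a difference of −2.07, and its probe stayed well above background in the knockout. Where its probe lies relative to the altered exon was not determined. The pools also differed in sex-linked transcripts, with *Xist* higher by 1.12 and *Ddx3y* lower, at −2.19, in knockout skin, so that sex composition and genotype cannot be told apart.

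By this scaling more serpin genes were higher than lower in knockout skin, and 4 of the 5 largest differences were those of clade b genes from the same stretch of chromosome 1, with *Serpina3g* of chromosome 12 second among them. Of the 62 genes, 45 were well above background on both arrays, 2 in knockout skin only, 2 in wild-type skin only, and 13 on neither. Among the 49 genes with a difference or a bound, 14 (28.6%) were higher by 2-fold or more in knockout skin, beside 6.70% of all 22502 genes with a value. At least 2-fold lower were 3 serpin genes (6.12%), beside 3.06% of all genes, and 32 lay under 2-fold. The median serpin difference was 0.21 over the 45 genes measured on both arrays, and that of all genes was −0.01. In clade b, 8 of 22 genes with a value (36.4%) were higher and 2 (9.09%) lower by 2-fold or more. In the other clades, 6 of 27 (22.2%) were higher and 1 (3.70%) was lower. These splits depended on the scaling. The 9 probes of the E1A spike-in RNA disagreed, with differences from −0.21 to 0.52, and centring subtracted their median of 0.43. Under centring on the spike-in RNA, 6 clade b and 3 other serpins were higher and 3 and 7 lower, while among all genes 832 were higher and 2199 lower, against 1507 and 689 by the 75th percentile. As shares of all genes with a value, 3.73% were higher and 9.86% lower under spike-in centring, 4.47% and 6.4% without scaling, and 4.33% and 1.45% with normexp background correction, and counts under these settings are to be read beside them.

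**Figure D1:**
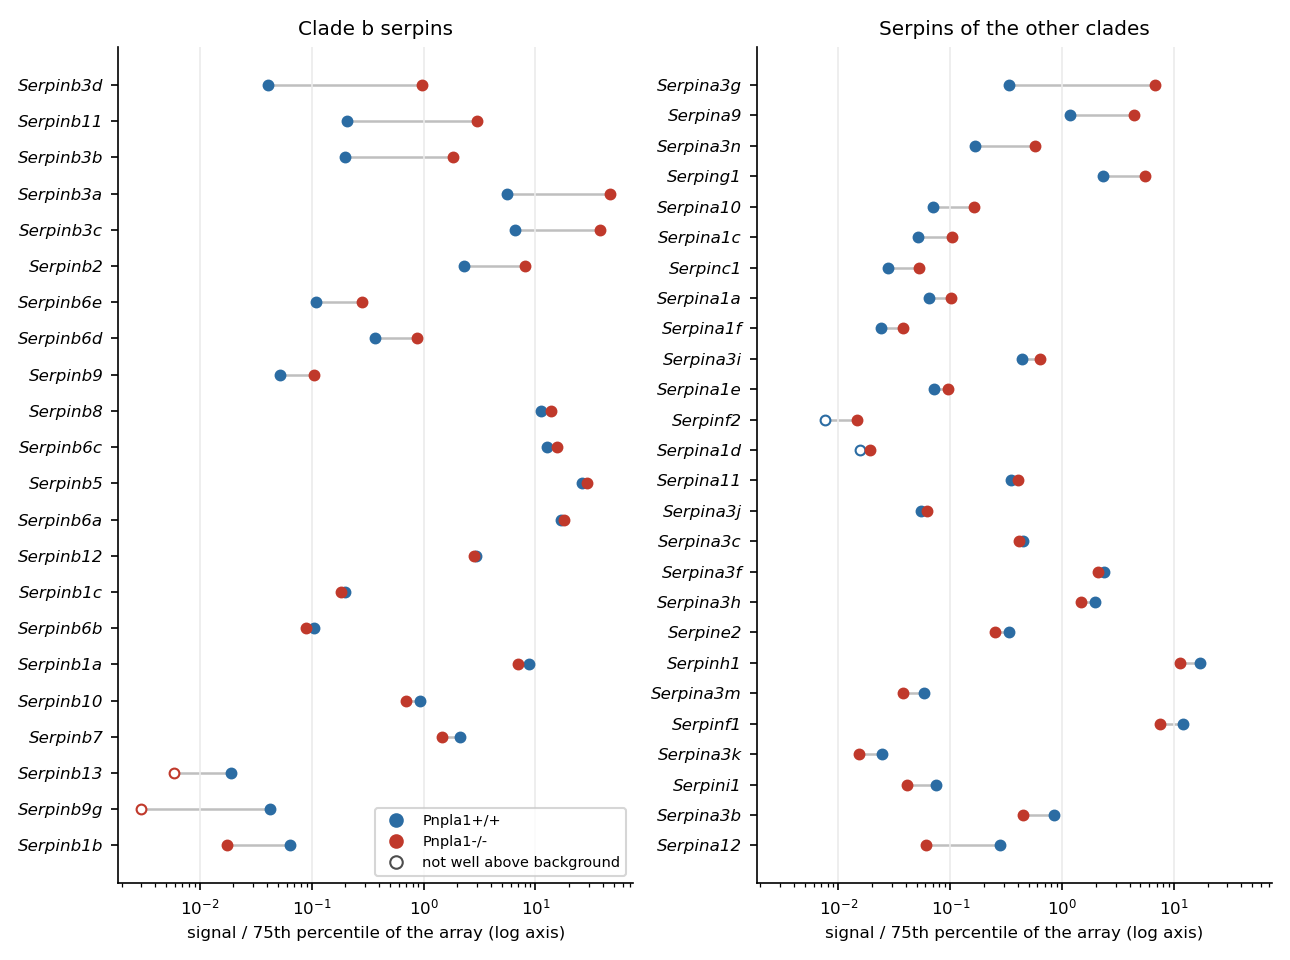
Signal of serpin genes with a value, divided by the 75th percentile of its array (log axis), in wild-type (blue) and knockout skin (red), with 22 clade b genes on the left and 26 of the 27 genes of the other clades on the right (1 is not shown), ordered by their difference. Open circles are signals not well above background. The widest gaps belong to *Serpinb3d*, *Serpina3g* and *Serpinb11*, and most other pairs lie close together.

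The 4 *Serpinb3* genes moved together, and the bases upstream of their transcription starts are shown here so that the copies can be compared. The sequences are RefSeq's 250 bases before the start (mouse assembly GRCm38.p6, strand of the gene, 5′ to 3′). Each has the letters TATAAA of a TATA box once, on either strand, which are given in capitals.
*Serpinb3a* (chr1:107052304-107052553, minus strand): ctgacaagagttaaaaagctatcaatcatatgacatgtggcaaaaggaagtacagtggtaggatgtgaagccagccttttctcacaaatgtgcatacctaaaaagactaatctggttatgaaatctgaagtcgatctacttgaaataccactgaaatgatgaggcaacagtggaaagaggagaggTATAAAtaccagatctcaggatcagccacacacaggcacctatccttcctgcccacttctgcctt
*Serpinb3b* (chr1:107161115-107161364, minus strand): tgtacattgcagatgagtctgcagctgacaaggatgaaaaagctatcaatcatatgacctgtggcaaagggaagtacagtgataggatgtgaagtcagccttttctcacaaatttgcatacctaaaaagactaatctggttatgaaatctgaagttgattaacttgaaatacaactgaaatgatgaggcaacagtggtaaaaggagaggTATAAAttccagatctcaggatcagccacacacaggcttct
*Serpinb3c* (chr1:107278372-107278621, minus strand): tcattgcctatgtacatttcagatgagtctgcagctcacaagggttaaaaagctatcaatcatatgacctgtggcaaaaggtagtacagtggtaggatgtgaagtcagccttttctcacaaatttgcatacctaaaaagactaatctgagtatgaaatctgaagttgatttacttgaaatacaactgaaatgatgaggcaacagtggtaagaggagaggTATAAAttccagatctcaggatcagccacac
*Serpinb3d* (chr1:107083481-107083730, minus strand): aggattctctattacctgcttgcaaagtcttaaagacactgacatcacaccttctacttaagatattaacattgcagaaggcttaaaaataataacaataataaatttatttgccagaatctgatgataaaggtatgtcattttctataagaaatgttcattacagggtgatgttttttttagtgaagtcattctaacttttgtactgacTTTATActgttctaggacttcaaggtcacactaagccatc
The sequences of *Serpinb3a*, *Serpinb3b* and *Serpinb3c* were near copies of one another. Each pair was aligned over its full length with gaps allowed, and likeness was counted over the paired bases, with gaps left out. *Serpinb3a* and *Serpinb3b* were alike at 211 of 226 bases (93.4%), *Serpinb3a* and *Serpinb3c* at 203 of 216 (94.0%), and *Serpinb3b* and *Serpinb3c* at 229 of 240 (95.4%). *Serpinb3d* was alike to these at 53.1% to 68.8% of bases, a range that overlaps the 54.6% to 63.5% found for the 4 genes against *Serpina3g*, a serpin of another clade. In *Serpinb3d* the TATAAA letters stand on the opposite strand. TATAAA was present in 4063 of all 32851 promoters of the same length (12.4%), in 14 of the 51 serpin genes with a promoter sequence, and in 8 of the 25 clade b genes. The letters TGANTCA, a match to the AP-1 site in which N is any base, were present in 6.75% of all promoters and in 7 of 25 clade b genes, namely *Serpinb2*, *Serpinb5*, *Serpinb7*, *Serpinb8*, *Serpinb10*, *Serpinb11* and *Serpinb12*, all of them on chromosome 1. The letters TTCNNNGAA, a match to the STAT site, were present in 7.02% of all promoters and in 3 of 25 clade b genes. None of the 4 sequences printed holds TGANTCA or TTCNNNGAA on either strand. Shares are over promoters, whereas a gene was counted if any of its starts held the letters. In clade b, *Serpinb1c*, *Serpinb2*, *Serpinb6a*, *Serpinb6d*, *Serpinb9c* and *Serpinb12* have 2 starts each, among them all 3 genes counted for TTCNNNGAA. Such a match describes letters, not a bound site.

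*Serpinb3a* to *Serpinb3d* are the mouse relatives of the human squamous cell carcinoma antigens, intracellular inhibitors of lysosomal cysteine proteases and of chymotrypsin-like serine proteases. All 4 were at least 2-fold higher in knockout skin, with a median difference of 3.13. *Serpinb3a* had an intensity of 11812 in wild-type and 80334 in knockout skin, a difference of 3.05. *Serpinb3c*, the only serpin with repeated spots, was measured by 10 spots that ranged from 13088 to 15080 in wild-type and from 62783 to 67467 in knockout skin. Its spots did not overlap between the arrays, and their differences ran from 2.43 to 2.61 around a mean of 2.50. The 10 spots repeat the same probe on each array with the same pooled RNA. Their spread therefore leaves out all variation between mice, pools, labellings and arrays, and their separation is no test of genotype. *Serpinb3b* had an intensity of 419 in wild-type and 3181 in knockout skin, a difference of 3.21. *Serpinb3d* went from 86.5 to 1672, and its difference of 4.56 was the largest of the 49 serpin values. The probes of *Serpinb3a* and *Serpinb3c* are alike at 43 of 48 bases, so each can take up RNA of the other gene. Those of *Serpinb3b* and *Serpinb3d* shared 80% or more of their bases with no other serpin probe. Probes were compared with probes and not with transcripts, so whether these probes take up RNA of other *Serpinb3* genes was not tested. The signals of the 4 probes, divided by the 75th percentile, summed to 12.5 in wild-type and 86.6 in knockout skin. Fewer cells that make a transcript and less of it per cell cannot be told apart in RNA from whole skin, nor can their opposites.

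The other clade b genes at least 2-fold higher on chromosome 1 were *Serpinb11* and *Serpinb2*. *Serpinb11*, whose mouse protein inhibits trypsin-like proteases, had an intensity of 440 in wild-type and 5238 in knockout skin, a difference of 3.85. *Serpinb2* encodes plasminogen activator inhibitor type 2, which blocks urokinase and is found in the cornified envelope of keratinocytes. Its intensity was 4853 in wild-type and 14124 in knockout skin, a difference of 1.82. The rest of the cluster did not reach 2-fold with the filter on dim probes. *Serpinb7*, in which loss-of-function mutations cause a human palmoplantar keratosis, differed by −0.52, *Serpinb10* (bomapin, known from blood cells) by −0.40 and *Serpinb12*, an inhibitor of trypsin-like proteases, by −0.04. *Serpinb13* (hurpin, an inhibitor of cathepsins L and K) was well above background in wild-type skin only, with an intensity of 39.7 against 10.3 in knockout skin, a bound of −0.59 on its difference, which may be larger. With no filter on dim probes and under spike-in centring, 1 gene of the cluster was at least 2-fold lower, beside 3.69% and 9.86% of all genes.

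The clade b genes lie in a cluster of 12 genes on chromosome 1 and in one of 15 on chromosome 13, and the clusters are given apart. On chromosome 1 all 12 had a value, 6 were higher by 2-fold or more and none lower, with a median of 1.82 over 11 genes measured on both arrays, or 1.07 with the bound of *Serpinb13* included. This median stayed above 0 under each scaling and each filter on dim probes, at 1.07 or more. On chromosome 13, 10 of 15 genes had a value, 2 were higher by 2-fold or more and 2 lower, which became 0 and 2 under spike-in centring and 2 and 0 under normexp background correction. Of all genes 6.70% were higher and 3.06% lower by the 75th percentile, 3.73% and 9.86% under spike-in centring, and 4.33% and 1.45% under normexp. The median was 0.08, a value that turned below 0 without scaling (−0.20), under quantile normalization (−0.08) and under spike-in centring (−0.35). In the order of the genes along chromosome 1, 5 of the 6 higher genes are neighbours, from *Serpinb3a* through *Serpinb3d*, *Serpinb3b* and *Serpinb3c* to *Serpinb11*. *Serpinb2* stands apart from them, beyond *Serpinb7*.

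**Figure D2:**
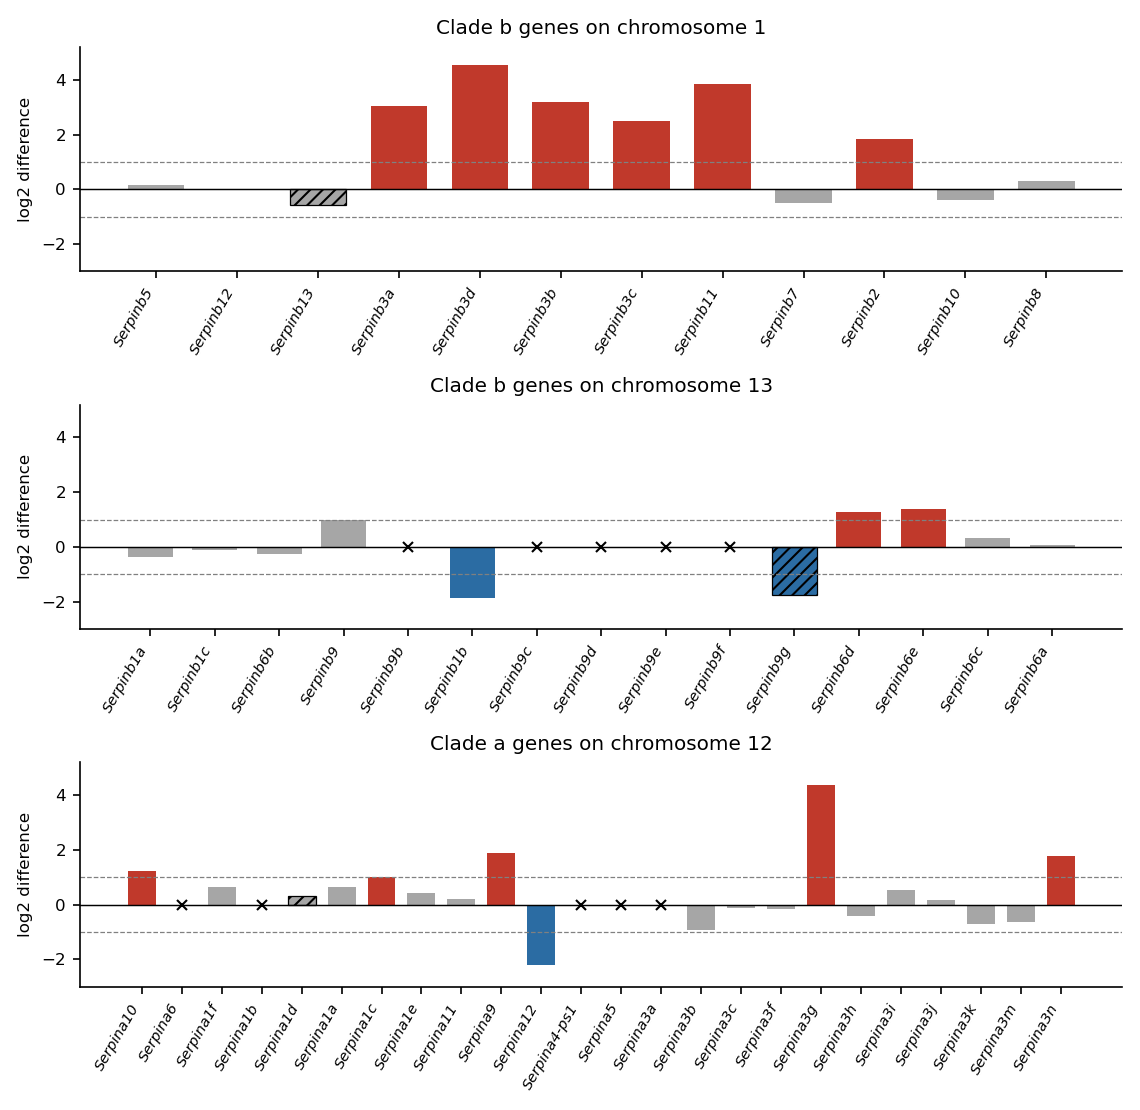
Log2 difference (knockout minus wild type) of clade b genes on chromosomes 1 and 13 and of clade a genes on chromosome 12, in the order of the RefSeq annotation and not to scale. Bars past the dashed lines (2-fold) are red when higher and blue when lower, hatched bars are bounds, and crosses are genes not well above background on either array. The tallest adjacent bars are the 4 *Serpinb3* genes and *Serpinb11*, and *Serpina3g* is the tallest bar on chromosome 12. *Serpina3f* is drawn by its brighter probe (−0.17), while its other probe gave 1.77.

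On chromosome 13 the genes are given by subfamily. The *Serpinb6* genes are relatives of the human inhibitor of cathepsin G and trypsin-like proteases. *Serpinb6e* had an intensity of 231 in wild-type and 493 in knockout skin, a difference of 1.38. *Serpinb6d* had 776 and 1527, a difference of 1.26. Under spike-in centring both lay under 2-fold, at 0.95 and 0.83, and *Serpinb6d* also did without scaling, at 0.98. The brighter *Serpinb6a* (35890 and 31263) and *Serpinb6c* (26579 and 27183) differed by 0.08 and 0.31, which turned to −0.35 and −0.12 under spike-in centring. *Serpinb6a* also turned negative without scaling (−0.20) and under quantile normalization (−0.08), and *Serpinb6b* differed by −0.24. Among the *Serpinb1* genes, relatives of the inhibitor of neutrophil elastase, cathepsin G and proteinase 3, *Serpinb1b* had an intensity of 134 in wild-type and 30.5 in knockout skin, a difference of −1.86 that was −0.87, under 2-fold, with normexp background correction. *Serpinb1a* (18621 and 11988) and *Serpinb1c* (418 and 314) differed by −0.35 and −0.13. Of the 7 *Serpinb9* genes, copies of the granzyme B inhibitor, 5 were well above background on neither array (*Serpinb9b*, *Serpinb9c*, *Serpinb9d*, *Serpinb9e* and *Serpinb9f*). *Serpinb9g* had an intensity of 89.1 in wild-type skin and 5.21, not well above background, in knockout skin. Its bound by the rule above was −1.75, or 3.37-fold, but −0.58, under 2-fold, with normexp background correction. *Serpinb9* itself went from 111 to 181, a difference of 0.99, just under 2-fold. Close probes limit these values, since *Serpinb6a* and *Serpinb6c* share 55 of 59 bases, *Serpinb6c* and *Serpinb6e* 41 of 47, and *Serpinb9f* and *Serpinb9g* 52 of 59.

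The brightest serpin probes that stayed under 2-fold were mostly those of clade b. *Serpinb5* encodes maspin, a serpin of epithelial cells that inhibits no protease in the usual way. It had an intensity of 54618 in wild-type and 50097 in knockout skin, a difference of 0.16 that turned negative without scaling, under quantile normalization and under spike-in centring (lowest −0.27). *Serpinb8*, an inhibitor of furin and trypsin-like proteases in which mutations cause a peeling skin disorder in humans, had 23416 and 24023, a difference of 0.32 that turned to −0.11 under spike-in centring. *Serpinh1*, the collagen chaperone Hsp47 of the endoplasmic reticulum, had 36041 and 19773, a difference of −0.58 that passed 2-fold, at −1.02, under spike-in centring. These 3, with *Serpinb6a* and *Serpinb6c* above, are the 5 serpins of highest mean signal outside the changed set.

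Outside clade b the largest difference was that of *Serpina3g*, also called Spi2A, an inhibitor of cathepsin B and related cysteine proteases that is known from activated leukocytes and acts inside the cell. Its intensity was 700.1 in wild-type and 11801 in knockout skin, a difference of 4.36. *Serpina3n*, a secreted acute-phase serpin that inhibits granzyme B, had 353 and 988, a difference of 1.77. The other *Serpina3* copies stayed under 2-fold by their brightest probe. Of the 11 genes, 10 had a value, only these 2 were at least 2-fold higher, the other 8 ran from −0.92 (*Serpina3b*, 1794 and 778) to 0.52 (*Serpina3i*), and the median was −0.14. Among all genes 6.70% were higher and 3.06% lower. Without scaling 2 were higher and 1 lower (median −0.42), beside 4.47% and 6.4% of all genes, and under spike-in centring 2 and 3 (median −0.57), beside 3.73% and 9.86%. The median was 0.03 when all probes of a gene were averaged. *Serpina3a* was well above background on neither array. Probes for 1 gene disagreed by more than 1 on the log2 scale only for *Serpina3f*. Its brighter probe went from 4962 to 3633, a difference of −0.17, and its dimmer probe from 365 to 1023, a difference of 1.77. The brighter probe is placed by the files on mm9 at chr12:105492556-105492615, beyond the probes of *Serpina3g* and *Serpina3h* and out of the order of the genes, and the dimmer one starts at 105458989. Which of them reports *Serpina3f* was not settled, and by the dimmer one it would count as higher. The probes of *Serpina3i* gave 0.52 and 1.42.

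The remaining clade a genes changed at least 2-fold are known for different roles. *Serpina9*, known from germinal centre B cells, had an intensity of 2498 in wild-type and 7535 in knockout skin, a difference of 1.87. *Serpina10*, the protein Z-dependent inhibitor of coagulation factor Xa, had 147 and 284, a difference of 1.23 that lay under 2-fold without scaling (0.95), under spike-in centring (0.80) and with normexp (0.95). *Serpina1c*, a copy of alpha-1 antitrypsin, the main plasma inhibitor of neutrophil elastase, had 109 and 181, a difference of 1.01. It passed 2-fold under only 5 of 12 alternatives and was lowest, at 0.58, under spike-in centring. *Serpina12*, or vaspin, inhibits kallikrein 7, a protease of skin shedding, and had the lowest difference of the serpins measured on both arrays. Its intensity was 586 in wild-type and 104 in knockout skin, a difference of −2.21. The probes of *Serpina1c* and *Serpina1a* are alike at 50 of 51 bases and cannot separate the genes. The other *Serpina1* copies measured on both arrays lay under 2-fold, with *Serpina1a* at 0.65, *Serpina1f* at 0.64 and *Serpina1e* at 0.43, and the median of the 4 genes was 0.65. *Serpina1d* passed background in knockout skin only, with a bound of at least 1.24-fold higher, and *Serpina1b* on neither array. Also on neither array were *Serpina5*, *Serpina6* and *Serpina7*, an inhibitor of activated protein C and the carriers of corticosteroids and thyroxine, and the pseudogene *Serpina4-ps1*. *Serpina11* differed by 0.21.

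Clades c to i hold 10 genes, of which 8 had a value. By the 75th percentile 1 was higher by 2-fold or more and none lower, without scaling 0 and 1, and under spike-in centring 0 and 3, beside 6.70% and 3.06%, 4.47% and 6.4%, and 3.73% and 9.86% of all genes. The median was −0.42, which became −0.85 under spike-in centring and −0.08 with no filter on dim probes. The higher one was *Serping1*, the C1 inhibitor, which blocks the first proteases of the complement cascade and plasma kallikrein. Its brighter probe had an intensity of 4927 in wild-type and 9583 in knockout skin, a difference of 1.24, and its other probe gave 1.05. *Serpinc1* (antithrombin) went from 58.1 to 90.9, a difference of 0.93. On the lower side were *Serpini1* (neuroserpin, an inhibitor of tissue plasminogen activator) at −0.88, *Serpinf1* (pigment epithelium-derived factor, which inhibits no protease) at −0.67, with its other probe at −1.02, and *Serpine2* (protease nexin 1) at −0.42. *Serpinf2*, the inhibitor of plasmin, passed background in knockout skin only, at least 1.30-fold higher. *Serpind1* (heparin cofactor II) and *Serpini2* were well above background on neither array.

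The clades were then set against each other, with no test. The median was 0.32 over 20 clade b genes and 0.18 over 25 genes of the other clades, a gap of 0.14. With the bounds included the medians were 0.24 and 0.21. The clade b median turned to −0.12 under spike-in centring, and that of the other clades to −0.10 without scaling and −0.25 under spike-in centring. With no filter on dim probes the gap was −0.02, and it was also −0.02 without the dimmer gene of each pair of clade b genes with alike probes, an alternative chosen after seeing the data. Clade b values ran from −1.86 to 4.56 and those of the other clades from −2.21 to 4.36. The summed signal, divided by the 75th percentile, went from 97.4 in wild-type to 187.7 in knockout skin for the clade b probes and from 41.2 to 43.2 for the others, and most of the gain of clade b lay in the *Serpinb3a* and *Serpinb3c* probes. At 3-fold, 6 clade b and 3 other serpins were higher (3.06% of all genes) and 2 and 1 lower (1.03% of all genes). At 1.5-fold, 9 and 9 were higher (13.8% of all genes) and 3 and 6 lower (9.37% of all genes). Just inside the 2-fold threshold lay *Serpina1c* (1.01), *Serpina10* (1.23) and *Serping1* (1.24), and just outside it *Serpinb9* (0.99), *Serpinc1* (0.93) and *Serpina3b* (−0.92).

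**Figure D3:**
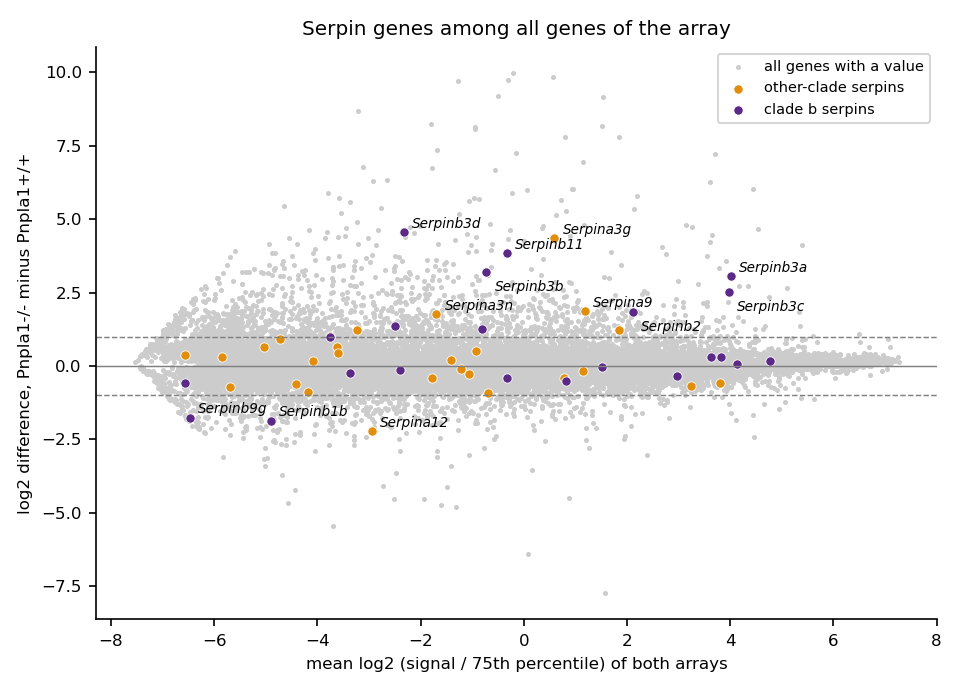
Log2 difference (knockout minus wild type, bounds included) against the mean log2 signal of both arrays for 22502 genes (grey), with clade b serpins in purple and other serpins in orange, and the 2-fold lines dashed. *Serpinb3a* and *Serpinb3c* lie at high signal, at 3.05 and 2.50, and *Serpinb9g* and *Serpinb1b* lie at low signal.

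Lists of proteases and related genes, which hold some known targets of serpins, were counted in the same arrays. Of all genes 6.70% were higher and 3.06% lower by the 75th percentile. Without scaling the shares were 4.47% and 6.4%, and under spike-in centring 3.73% and 9.86%. Among 27 secreted and membrane serine proteases of the epidermis, 25 had a value, 12 were at least 2-fold higher and 1 lower, with a median of 1.05. Under spike-in centring these became 9, 2 and 0.62. The largest was *Klk12*, with an intensity of 37.2 in wild-type and 2462 in knockout skin, a difference of 6.33, the lowest was *Tmprss11f* (−1.19), and the brightest, *Klk5*, a starter of the shedding cascade, had 39791 and 26422 (−0.31). *Klk7*, the known target of *Serpina12*, differed by 1.05 and was chosen after its value was seen. Among 10 cysteine cathepsins, a class that holds targets of *Serpinb3a* and *Serpina3g*, 3 were at least 2-fold higher and none lower (median 0.45), or 1 and 1 under spike-in centring (median 0.02), from *Ctss* at 2.09 to *Ctsk* at −0.71, with the brightest, *Ctsb*, at 0.59. Among 21 leukocyte and mast cell serine proteases, 16 had a value, 5 were higher and 1 lower, from *Mcpt8* at 3.68 to *Tpsab1* at −2.67, with *Mcpt4* brightest at −0.43. Without scaling 3 were higher and 3 lower, and under spike-in centring 3 and 4. Their median was −0.23, which became −0.66 under spike-in centring and 0.05 with no filter on dim probes.

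For the next lists the shares of all genes are again 6.70% higher and 3.06% lower, 4.47% and 6.4% without scaling, and 3.73% and 9.86% under spike-in centring. The list of plasminogen activation, coagulation and complement genes also holds some that encode no protease, such as *Plaur* (1.31) and *Thbd* (1.25), both higher. Of its 21 genes, 19 had a value and 4 were higher, with none lower and a median of 0.35. Under spike-in centring 2 were higher and 2 lower, with a median of −0.08. The largest was *C1ra*, a target of *Serping1*, with an intensity of 1991 in wild-type and 7846 in knockout skin, a difference of 2.26. The lowest was the bound of *F12* (−0.87), and the brightest was *F10* (0.33). Of 10 caspases, 2 were higher and none lower, with *Casp4* highest at 1.76, *Casp14* brightest at 0.74 and a median of 0.31 that turned to −0.12, with 1 higher, under spike-in centring. Of 30 protease inhibitors other than serpins with a value, 8 were higher by 2-fold or more and 2 lower, with a median of 0.28. Without scaling these became 6, 4 and −0.01, and under spike-in centring 5, 4 and −0.16. Among them *Slpi*, the secretory leukocyte protease inhibitor, had 244 in wild-type and 45044 in knockout skin, a difference of 7.81. This exceeded the difference of every serpin. The lowest was the bound of *Pzp* (−1.86), and the brightest was the stefin *Stfa3* (0.37).

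**Figure D4:**
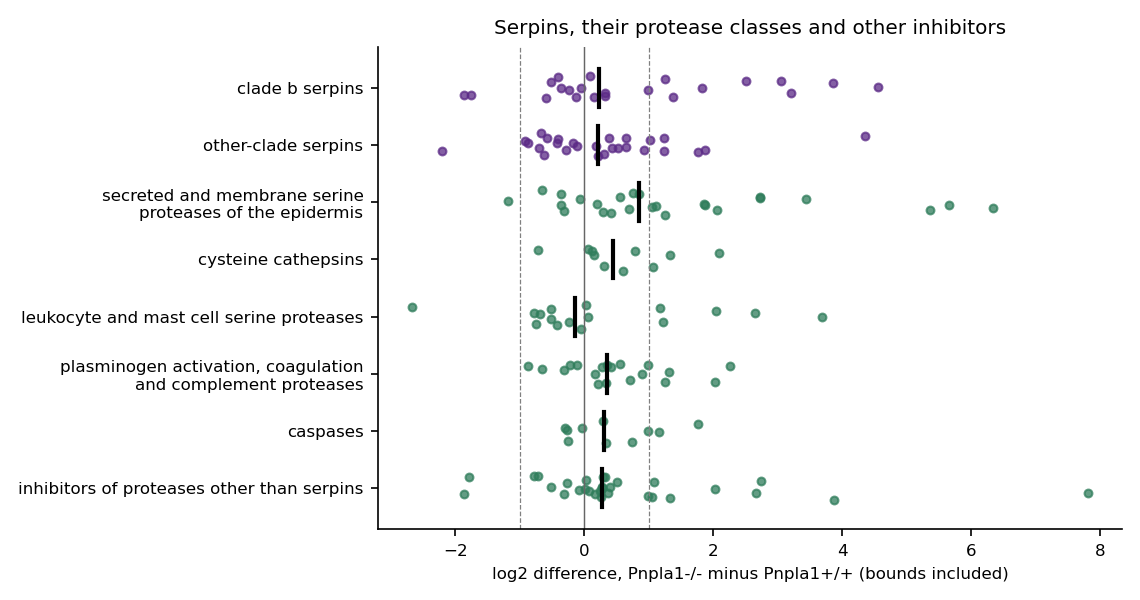
Log2 difference (knockout minus wild type, bounds included) of each gene with a value in the clade b serpins, the other serpins and 6 lists of proteases, related genes and inhibitors. Points are genes, jittered vertically, black bars are medians with bounds included, and dashed lines mark 2-fold. The serine proteases of the epidermis reach 6.33 and *Slpi* reaches 7.81, while the serpins end at 4.56.

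Markers of other cells that the skin could hold are given beside these values, here and in the next paragraph. Their counts stand beside 6.70% of all genes higher and 3.06% lower, 4.47% and 6.4% without scaling, and 3.73% and 9.86% under spike-in centring. Of 8 neutrophil markers, 5 were at least 2-fold higher (median 3.33), and their summed signal went from 44.4 in wild-type to 48.3 in knockout skin, most of it from *Csf3r*, which differed by 0.04. *Cxcr2* passed background in knockout skin only, with a bound of 5.90, and *Ly6g* differed by 0.42. Of 6 macrophage and dendritic cell markers with a value, 3 were higher, with a median of 1.005. Under spike-in centring 1 was higher and the median was 0.57. Their sum went from 12.1 to 21.2, the largest was *Itgax* at 2.82, the brightest *Csf1r* at 0.67, and *Cd207* was well above background on neither array. Of 7 T and NK cell markers with a value, 1 was higher, the bound of *Gzmb* at 2.05. Their median was 0.13 and the sum went from 2.10 to 2.55, with *Cd4* brightest at 0.40 and *Cd3d* lowest at −0.46. The part of these cells in the differences of *Serpina3g*, *Serpina3n* and *Serpinb2* was not tested. The 6 mast cell markers had no gene past 2-fold, with a median of −0.52, a sum from 56.7 to 39.8 and *Cpa3* brightest at −0.52. Without scaling and under spike-in centring 2 were lower, and under quantile normalization and cyclic loess 1 was.

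Keratinocyte markers differed less than the *Serpinb3* genes did. Of 7 basal markers 1 was higher (*Krt14*, 1.35; 0 under spike-in centring) and 1 lower (*Krt15*, −1.67), the median was 0.14, the sum went from 199 to 230 and the brightest, *Krt5*, differed by 0.22. Of 7 suprabasal markers none passed 2-fold, or 1 lower under spike-in centring, the median was 0.20, the sum went from 469 to 521, and the brightest, *Krt10*, differed by 0.20. Hair follicle markers were lower, with 6 of 11 past 2-fold (4 under normexp or cyclic loess, 9 under spike-in centring) and a median of −1.01, from *Edar* at −0.32 to *Krt35* at −1.33, and their sum went from 90.1 to 46.2 with *Krt71* brightest at −0.82. Whether this bears on the lower serpins was not tested. The plasma serpins are made chiefly by the liver, and of 8 hepatocyte markers 5 were well above background on neither array (*Apoa1*, *Apoh*, *Ttr*, *Afp* and *Fgb*). None passed 2-fold, the sum went from 1.24 to 1.19, and the brightest was *Apoa2* (−0.06). *Alb* had an intensity of 131 in wild-type and 88.0 in knockout skin (−0.30). *Ahsg*, the only other with a value, went the other way, passing background in knockout skin only with a bound of 0.41. No marker passed 2-fold, under any setting, among 7 of fibroblasts (median 0.01, brightest *Col1a2*, −0.17), 6 of endothelium (0.35, *Kdr*, 0.31), 6 of skeletal muscle (0.06, *Tnni2*, 0.01), 5 of melanocytes (−0.38, *Dct*, −0.38) or 4 measured ones of adipocytes (0.08, *Fabp4*, 0.10). Of 4 Schwann cell markers 1 was higher (*Mbp*, 1.34; median 0.03), or 0 under spike-in centring. Of 5 red blood cell markers 2 were higher (*Alas2*, 1.32, and *Hbb-bt*, 1.04), with a median of 0.93, a sum that went from 73.1 to 139.6 and *Hba-a1* brightest at 0.83. Under spike-in centring 0 were higher and 1 lower, and with no filter on dim probes 2 and 1, the latter beside 10.1% and 3.69% of all genes. Without scaling, with the array median, under quantile normalization and under cyclic loess 1 was higher. Under spike-in centring the medians turned below 0 for basal (−0.29) and suprabasal keratinocytes (−0.23), T and NK cells (−0.30), fibroblasts (−0.42), endothelium (−0.08), skeletal muscle (−0.37), adipocytes (−0.36) and Schwann cells (−0.40), all but that of endothelium also without scaling and some under further settings, and that of hepatocyte markers (−0.18) became 0.20 with no filter on dim probes.

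The values of the changed serpins moved with the processing by different amounts. Another factor per array shifts all genes alike, by 0.43 at most here, and cannot turn the direction of genes chosen for a difference of 2-fold. Of the 17 genes, 10 stayed past 2-fold under every alternative that gave a difference, namely the 4 *Serpinb3* genes, *Serpinb11*, *Serpinb2*, *Serpina3g*, *Serpina9*, *Serpina3n* and *Serpina12*. *Serpinb3d* ran from 3.71 to 4.62 and *Serpina3g* from 3.93 to 4.43. *Serpinb6e* passed 2-fold under 11 of 12 alternatives, *Serpinb6d* and *Serping1* under 10, *Serpina10* under 9 and *Serpina1c* under 5. *Serpinb1b* and *Serpinb9g*, which are dim, fell to −0.87 and −0.58 under normexp background correction, and *Serpinb9g* reached −3.81 with no filter on dim probes.

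**Figure D5:**
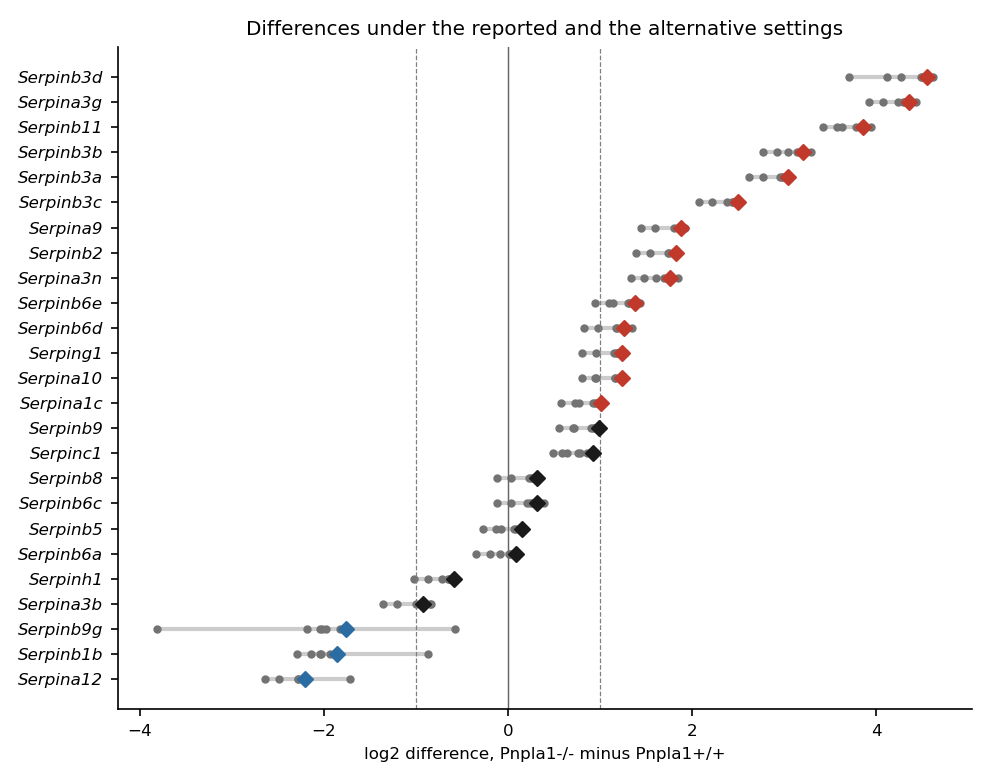
Log2 difference (knockout minus wild type) of the 25 serpin genes named by rule under the reported setting (diamonds, red when at least 2-fold higher, blue when at least 2-fold lower, black otherwise) and under the alternative settings (grey points, joined by their range), with 2-fold lines dashed. The upper 9 genes and *Serpina12* stay past 2-fold throughout, and *Serpinb9g* has the widest range, from −3.81 to −0.58.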

How the data were processed

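Each of the 2 arrays was assigned to its genotype from its labels. Per the submitters' processing notes, spot values came from Agilent Feature Extraction 11.5.1.1. The authors deposited for each spot a background-subtracted intensity on a linear scale, which was used here and is not scaled between arrays. A further table deposited by the authors holds the ratio of that intensity to 1 factor per array (2109 for wild type, 1734 for knockout, at or next to the 75th percentile), with no log or gene centring and medians of 0.106 and 0.111, and it served as an alternative. The methods name global normalization without its statistic.

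From the intensities, log2 of the signal over the array's 75th percentile was taken over 43020 spots other than controls with Python 3.11.15, numpy 2.4.6 and pandas 2.3.3. A spot flagged as an outlier on 1 or both arrays was left out (138 flags on the wild-type and 82 on the knockout array, none on the 88 serpin spots), and no spot was saturated. Well above background were 71.7% of spots in wild-type and 73.3% in knockout skin. Repeated spots were averaged on the log2 scale. Genes were named by RefSeq symbol through the accession in the files (27502 probes, 75 of the 79 serpin probes), and otherwise kept the name in the files. Probe positions are those of the files on mm9, and promoters are RefSeq's on GRCm38.p6.

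Serpins named in the text are those at least 2-fold changed, the 5 of highest signal among the rest, and the 3 nearest below 2-fold. The other serpins are named for completeness. Some genes, though counted, are not reported here. From each list of proteases, inhibitors and cell markers the highest, lowest and brightest genes were to be given, and further ones were named after their values were seen. The members, lists and rules were chosen with earlier results of these data known. No test was run, since 1 array a genotype has no replicate, and the number of arrays limits the precision.

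As alternatives the scaling was replaced by the array median, by none, by a 75th percentile of doubly detected probes, by centring on the E1A spike-in (9 probes) and, in limma 3.58.1 under R 4.3.3, by quantile normalization and cyclic loess. Normexp background correction (offset of 50), the authors' ratios, averaging all probes of a gene, dropping bounds, keeping every dim probe, keeping flagged spots, and thresholds of 1.5-fold and 3-fold were also tried. The computation was tested on simulated data.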

Additional observations from a re-analysis of the deposited data

How the results depend on the processing

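No paired analysis was possible because each genotype has 1 array. Leaving out an array was not possible for the same reason. Of 12 other settings that give a difference, none turned the direction of a serpin changed at least 2-fold, which for another factor per array could not happen at differences of that size. The scaling moved the median of all genes from −0.01 to −0.29 without scaling and to −0.44 under spike-in centring, and the share of changed genes that were higher from 68.6% to 41.1% and 27.4%, with 58.5% under quantile normalization. The median of clade b, 0.32, became 0.035 without scaling, 0.22 under quantile normalization, −0.12 under spike-in centring and 0.16 with no filter on dim probes, and that of the other clades, 0.18, became −0.10 without scaling and −0.25 under spike-in centring. The gap between them, 0.14, was −0.024 with no filter on dim probes. Leaving out the dimmer gene of each pair of alike clade b probes, which was chosen after seeing the data, gave a clade b median of 0.16 and a gap of −0.024. The number of other-clade serpins at least 2-fold higher, 6, was 3 without scaling, 3 under spike-in centring and 3 at a 3-fold threshold. Of all genes 6.70% were higher as reported, and 4.47%, 3.73% and 3.06% in these settings. The number lower, 1, was 3 without scaling, 7 under spike-in centring and 6 at 1.5-fold. Of all genes 3.06% were lower as reported, and 6.4%, 9.86% and 9.37% in these settings. The number of clade b serpins lower, 2, was 0 under normexp and 1 when bounds were not counted, beside 1.45% and 2.57% of all genes. With *Serpina3f* taken by its other probe, also chosen after seeing the data, 7 other-clade serpins were higher, beside 6.70% of all genes. The median of the other clades was then 0.21. The cause of these changes was not tested. Dim probes carry the least certain values, since the lowest signals well above background were 0.0113 and 0.0125 of the 75th percentile in wild-type and knockout skin.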
